A study of Mus musculus with 20 samples.

Results

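Thbs3, Riiad1, Gm42743, Capza1, Ank2, Rpl34, Lamtor3 and Unc5c are 8 genes of mouse chromosome 3, the chromosome that also carries P2ry14, and they are 8 of the 26211 genes in the deposited table. They were chosen from the contrast of P2Y14-knockout against wild-type islets, by name from among the chromosome 3 genes that passed the threshold there, so every difference between the genotypes given for them describes how they were picked and carries no test. Their adjusted p in limma ran from 3.53e-04 for Thbs3 to 0.0413 for Riiad1. All 8 passed the filter on low values, a mean normalized read count of at least 10 over the 20 libraries, and 7 had a mean of 50 or more.

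The libraries came from islets of the pancreas, small clusters of hormone-secreting cells, taken from 10 P2Y14-knockout and 10 wild-type samples, all of the strain C57BL/6 x 129S6. In both groups the pancreas was digested with Liberase, and islets were picked by hand and kept in culture overnight before RNA extraction. The labels do not give which part of the gene was deleted, which strain's alleles each animal carried on chromosome 3, or whether each library came from its own animal. Islets are mixed tissue, so fewer cells of a type and less RNA per cell cannot be told apart.

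P2Y14 senses extracellular UDP-glucose and related nucleotides through G proteins, and its gene lies in a cluster of related receptor genes. The 8 genes are not known as a pathway. Thrombospondins are secreted matrix glycoproteins, UNC5 receptors bind netrins at the cell surface, and ankyrins tie membrane channels and transporters to the spectrin skeleton. Capping protein closes the fast-growing end of actin filaments. The Ragulator complex holds the Rag GTPases on lysosomes, where they recruit mTORC1 in response to amino acids, and ribosomal proteins build the ribosome itself.

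Reads summed over genes ranged from 34520628 to 199847246 per library. P2ry14 itself had normalized read counts of 0 to 114 in knockout libraries (median 44.8) and 79.7 to 262 in wild-type libraries (median 118), with a log2 difference of -1.97 and an adjusted p of 0.244 in limma. It passed the threshold in DESeq2 (log2 difference -1.56), in limma with the acinar share as a covariate (-2.27) and in limma without knockout replicate 5 (-1.39), where it had no read. Of 7 marker lists for islet endocrine, acinar, duct, endothelial, mesenchymal, macrophage and Schwann cells, no gene passed the threshold in limma. Acinar markers held 6.77% to 26.5% of the reads in knockout libraries and 5.12% to 25.7% in wild-type libraries, and knockout replicate 6 had the highest share. The macrophage list had a median log2 difference of 0.74 over its 5 genes, with summed values of 1069 to 3897 in knockout libraries and 1520 to 3509 in wild-type libraries; its part in the differences below was not tested.

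Of the 8 genes, 5 were higher in knockout islets (Riiad1, Capza1, Ank2, Rpl34 and Lamtor3) and 3 were lower (Thbs3, Gm42743 and Unc5c). Over all 17482 genes tested, limma called 28 genes higher (0.16%) and 21 lower (0.12%), and on chromosome 3 it called 10 of 833 (1.2%). These shares stand beside the choice of the genes and nothing is read from them. The median absolute log2 difference was 1.22 over the 8 genes and 0.17 over all genes tested.

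**Figure D1:**
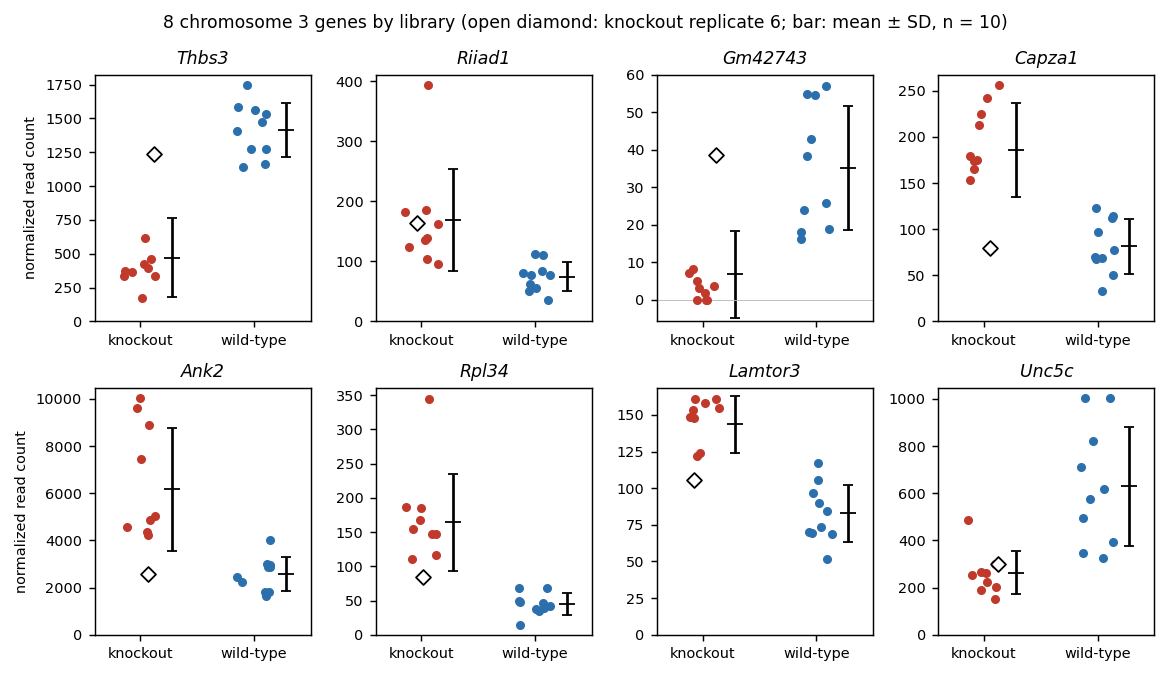
Normalized read counts of the 8 genes, 1 panel each, with knockout libraries on the left and wild-type libraries on the right; dots are libraries, the open diamond is knockout replicate 6 and the bars are the mean ± SD over 10 libraries. Knockout replicate 6 lies among the wild-type dots for Thbs3, Gm42743, Capza1 and Ank2, at 1234, 38.6, 79.7 and 2570, and among the other knockout dots for Riiad1 and Unc5c.

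Thbs3 (ENSMUSG00000028047) encodes thrombospondin 3, a secreted glycoprotein of the extracellular matrix known from skeletal tissue. It was lower in knockout islets, with normalized read counts of 172 to 617 (median 373) in 9 knockout libraries and 1140 to 1745 (median 1443) in wild-type libraries. The remaining knockout library, replicate 6, had 1234 and lay inside the wild-type range. Without it the groups did not overlap and wild-type islets held 3.66 times the knockout level. Over all libraries Thbs3 averaged 471 ± 290 in knockout islets and 1416 ± 199 in wild-type islets (SD, n = 10 each), a log2 difference of -1.75 with an SE of 0.22.

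Its promoter is shown because the neighbouring gene Mtx1, a mitochondrial import protein, has a RefSeq start 1273 bases away on the opposite strand. Thbs3 differed, whereas no difference was called for Mtx1. Some annotated exons of these genes overlap, so the stretch between the starts does not separate them fully. The sequence is the 250 bases before the start of Thbs3 from RefSeq (GRCm38.p6, chr3:89214930-89215179, plus strand), with matches to CCAAT and GGGCGG in capitals, both read here on the minus strand.
Thbs3 promoter: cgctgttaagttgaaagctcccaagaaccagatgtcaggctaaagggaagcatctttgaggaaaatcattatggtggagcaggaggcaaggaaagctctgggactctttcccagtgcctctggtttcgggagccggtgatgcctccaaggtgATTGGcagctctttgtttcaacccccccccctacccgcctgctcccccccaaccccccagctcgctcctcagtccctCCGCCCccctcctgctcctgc
Both strands were searched for CCAAT (the CCAAT box), GGGCGG (the GC box), TATAAA (the TATA box), CACGTG (the E-box) and TGACGT (part of the cAMP response element). Only the CCAAT box and the GC box were found; the motifs do not overlap each other there. In RefSeq promoters of this length, 33.8% of 32851 hold CCAAT and 32.7% hold GGGCGG, so neither sets Thbs3 apart. Mtx1 had 2789 ± 446 in knockout islets and 2742 ± 594 in wild-type islets (SD, n = 10 each), a log2 difference of 0.04 with an adjusted p of 0.951 in limma. Exons of Thbs3 and Mtx1 overlap on opposite strands and share 4.85% of the 50-base stretches of the Thbs3 reading frame, and the library kit does not mark strand.

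Unc5c (ENSMUSG00000059921) encodes a netrin receptor known for axon repulsion. It was lower in knockout islets, with normalized read counts of 150 to 486 (median 253) in 9 knockout libraries, 301 in knockout replicate 6, and 326 to 1004 (median 596) in wild-type libraries. Only knockout replicate 7, at 486, reached into the wild-type range, where wild-type libraries 14 and 20 were the lowest at 326 and 346. Unc5c averaged 263 ± 92.0 in knockout islets and 629 ± 253 in wild-type islets (SD, n = 10 each), a log2 difference of -1.21 with an SE of 0.23. The ratio of wild-type to knockout means was 2.39, and 2.43 without knockout replicate 6.

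Among 11 netrins and netrin receptors tested, of 15 listed, none passed the threshold in limma. The paralog Unc5a was at 1626 ± 304 in knockout islets and 1906 ± 254 in wild-type islets, with a log2 difference of -0.24 and an adjusted p of 0.537. Unc5b had a log2 difference of -0.30 and an adjusted p of 0.643, and the netrin gene Ntn4 one of -0.40 with an adjusted p of 0.518. Unc5d, low in both groups, had -1.37 with an adjusted p of 0.678. The list as a whole had 5 genes higher and 6 lower in knockout islets, and Ntn1 had a log2 difference of 0.35 with an adjusted p of 0.828. The thrombospondins and their receptors likewise had 0 of 6 tested genes past the threshold, with Cd47 at a log2 difference of 0.08 and Thbs1 at 0.24. In that list 1 of 6 genes (16.7%) had an unadjusted p under 0.05 in limma, and among the netrins and their receptors 3 of 11 (27.3%). The share over all genes tested was 8.94%.

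Ank2 (ENSMUSG00000032826) encodes ankyrin B, which anchors channels and exchangers to the spectrin skeleton. It was higher in knockout islets, with normalized read counts of 4237 to 10051 (median 5053) in 9 knockout libraries and 1660 to 4000 (median 2650) in wild-type libraries. Knockout replicate 6 had 2570, inside the wild-type range, and without it the groups did not overlap. Ank2 averaged 6162 ± 2610 in knockout islets and 2567 ± 721 in wild-type islets (SD, n = 10 each), a log2 difference of 1.19 with an SE of 0.22.

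Knockout values of Ank2 fell into a high and a low set: replicates 1, 2, 3 and 5 had 7437 to 10051, and the other 6 had 2570 to 5053. Ank2 has a very long messenger RNA, with a longest annotated transcript of 14305 bases against a median of 3053 over tested genes. Library by library, the mean log2 deviation over 863 tested genes with transcripts of at least 8000 bases, called the long-transcript level, was 0.10 to 0.44 in those 4 knockout libraries and -0.39 to -0.04 in the other 6. In wild-type libraries it ran from -0.32 to 0.34. The level averaged -0.07 ± 0.28 in knockout islets and 0.07 ± 0.23 in wild-type islets (SD, n = 10 each), so the knockout libraries with high Ank2 were also those with more signal from other long transcripts, whereas the mean level was lower in knockout islets. With that level as a covariate, chosen after seeing the data, the log2 difference of Ank2 was 1.44.

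**Figure D2:**
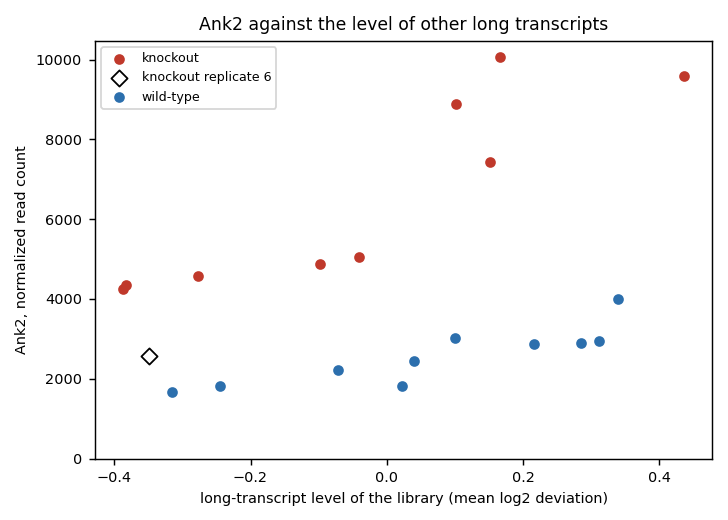
Normalized read count of Ank2 (vertical axis, from 0) against the long-transcript level of each library (horizontal axis, mean log2 deviation over 863 genes); red dots are knockout libraries, the open diamond is knockout replicate 6 and blue dots are wild-type libraries. At each level the 9 other knockout libraries lie above the wild-type libraries, and both sets are higher toward the right.

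The ankyrin and spectrin list showed no member past the threshold in limma among 15 tested. In it 1 gene (6.67%) had an unadjusted p under 0.05, against 8.94% of all genes tested. Of the 15, 13 had lower values in knockout islets, with a median log2 difference of -0.12 against 0.00 over all tested genes. Itpr1, an inositol trisphosphate receptor of the endoplasmic reticulum, came nearest to the threshold at 12212 ± 3491 in knockout islets and 19711 ± 4634 in wild-type islets (SD, n = 10 each), a log2 difference of -0.70 with an adjusted p of 0.0662, and it passed with knockout replicate 1 or 5 left out, and with wild-type library 14 left out. The paralog Ank3 had -0.29 with an adjusted p of 0.569, and Ank1 -0.03 with an adjusted p of 0.991.

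Capza1 (ENSMUSG00000070372) encodes the alpha 1 subunit of actin capping protein. It was higher in knockout islets, with normalized read counts of 153 to 257 (median 180) in 9 knockout libraries and 32.8 to 123 (median 73.9) in wild-type libraries. Knockout replicate 6 had 79.7, inside the wild-type range, and was the only knockout library there. Capza1 averaged 186 ± 51.1 in knockout islets and 81.4 ± 29.5 in wild-type islets (SD, n = 10 each), a log2 difference of 1.22 with an SE of 0.24. In limma it missed the threshold when knockout replicate 4, 8 or 9 was left out, with adjusted p of 0.0600, 0.0528 and 0.0502.

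Capza1 has a near copy, the pseudogene Gm3608 on chromosome 1, with which it shares 76.4% of the 50-base stretches of its reading frame. Gm3608 had 54.0 ± 12.8 in knockout islets and 56.8 ± 19.1 in wild-type islets (SD, n = 10 each), a log2 difference of -0.05 with an adjusted p of 0.963 in limma. Of the reads summed over both genes, Capza1 held 76.7 ± 6.83% in knockout islets and 58.0 ± 9.23% in wild-type islets. The value of Capza1 is uncertain where reads match both. Its partners in the capping complex did not pass the threshold in limma: Capza2 had a log2 difference of 0.20 (adjusted p = 0.619) and Capzb 0.14 (adjusted p = 0.724). Of 11 actin capping genes tested none was called. An unadjusted p under 0.05 in limma was found for 1 of them (9.09%), against 8.94% of all genes tested.

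Rpl34 (ENSMUSG00000062006) encodes a protein of the large ribosomal subunit. It was higher in knockout islets, with normalized read counts of 111 to 344 (median 154) in 9 knockout libraries, 84.8 in knockout replicate 6, and 14.8 to 68.2 (median 44.4) in wild-type libraries. Every knockout library stood above every wild-type library, which held for no other of the 8 genes when all 20 libraries were kept; over all genes tested 6 had groups apart in this way (0.0343%). Rpl34 averaged 164 ± 71.0 in knockout islets and 45.0 ± 15.7 in wild-type islets (SD, n = 10 each), a log2 difference of 1.84 with an SE of 0.25. Knockout replicate 10 was the highest and wild-type library 20 the lowest.

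Reads of Rpl34 are hard to place. Its reading frame of 354 bases differs from that of the processed pseudogene Rpl34-ps1 on chromosome 6 at 2 bases, and 71.5% of its 50-base stretches occur in at least 1 of 8 other annotated genes. The first 60 bases of the frame, identical in both genes, and a later window with 1 differing base in capitals (bases 73 to 132, counted from the first base of the start codon) are shown because they decide how far reads can be told apart. The sequences are from GENCODE M21 transcripts.
Rpl34 start: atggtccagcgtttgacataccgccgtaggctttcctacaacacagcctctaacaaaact
Rpl34-ps1 start: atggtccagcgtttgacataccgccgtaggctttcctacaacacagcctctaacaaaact
Rpl34 window: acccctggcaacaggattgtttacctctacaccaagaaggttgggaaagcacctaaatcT
Rpl34-ps1 window: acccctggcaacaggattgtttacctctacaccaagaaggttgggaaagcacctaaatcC
Rpl34-ps1 took most of the reads of the pair, with 1476 ± 713 in knockout islets and 1127 ± 432 in wild-type islets (SD, n = 10 each), a log2 difference of 0.35 with an adjusted p of 0.692 in limma. Rpl34 held 10.7 ± 3.67% of the summed reads in knockout islets and 4.20 ± 1.84% in wild-type islets. The share in Rpl34 was 5.78% to 18.1% in knockout libraries and 1.43% to 6.85% in wild-type libraries, so the groups overlapped on it at knockout replicate 6, which had the lowest knockout share.

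Among 44 other genes of the large ribosomal subunit, only Rpl17 passed the threshold in limma, at 62.3 ± 17.0 in knockout islets and 25.3 ± 13.5 in wild-type islets (SD, n = 10 each), a log2 difference of 1.39 with an adjusted p of 0.0324. Values were higher in knockout islets for 43 of the 44, with a median log2 difference of 0.38, and 12 (27.3%) had an unadjusted p under 0.05, against 8.94% of all genes tested. Rpl17 passed in 13 of the 20 fits that left out a library, failing where knockout replicate 4, 7 or 8 was left out, and where wild-type library 11, 12, 15 or 19 was, with an adjusted p of up to 0.0826. The edgeR test gave it an adjusted p of 0.0607. Per kilobase of exon, 5 of the 44 had a lower mean level than Rpl34, at 39.6. Rpl17 was among them at 33.0, against a median of 179 over the list. Reads matching copies of these 44 genes were not examined, so their values, direction and ranking may carry the same limit as Rpl34.

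Lamtor3 (ENSMUSG00000091512) encodes a subunit of Ragulator, the lysosomal scaffold of mTORC1 signalling. It was higher in knockout islets, with normalized read counts of 122 to 161 (median 153) in 9 knockout libraries, 105 in knockout replicate 6, and 52.0 to 117 (median 78.8) in wild-type libraries. The groups overlapped at knockout replicate 6 alone, which wild-type library 14 exceeded. Lamtor3 averaged 144 ± 19.4 in knockout islets and 82.7 ± 19.7 in wild-type islets (SD, n = 10 each), a log2 difference of 0.81 with an SE of 0.15, the smallest of the 8.

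Lamtor3 also has a near copy, the processed pseudogene Gm5900 on chromosome 7, not analysed here for its level, whose frame differs at 2 of 375 bases. A window with 1 of those differences in capitals (bases 52 to 111 of the frame, from GENCODE M21 transcripts) shows how alike they are.
Lamtor3 window: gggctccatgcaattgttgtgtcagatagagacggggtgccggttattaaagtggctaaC
Gm5900 window: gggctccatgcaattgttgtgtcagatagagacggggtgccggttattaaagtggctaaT
The shared stretches make up 72.4% of the 50-base stretches of the Lamtor3 frame, so reads from the frame are hard to place. Over all annotated transcripts, stretches shared with any other gene made up 5.46% for Lamtor3, 7.78% for Rpl34 and 64.5% for Capza1. How many reads of Lamtor3 came from the frame was not examined. The other Ragulator subunits Lamtor1, Lamtor2, Lamtor4 and Lamtor5 had log2 differences of 0.20, 0.20, 0.14 and 0.22, and the kinase gene Mtor -0.07, with adjusted p of 0.661 to 0.891 in limma. No gene of the 21 in the Ragulator, Rag and mTORC1 list passed the threshold. In limma 2 of the 21 (9.52%) had an unadjusted p under 0.05, against 8.94% of all genes tested. Their median log2 difference was 0.00.

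Riiad1 (ENSMUSG00000028139) encodes a small protein with an RIIa domain, the fold by which regulatory subunits of protein kinase A pair. It was higher in knockout islets, with normalized read counts of 95.7 to 393 (median 138) in 9 knockout libraries, 165 in knockout replicate 6, and 35.7 to 112 (median 77.2) in wild-type libraries. Knockout replicates 3 and 7 lay below the highest wild-type libraries, and knockout replicate 9 stood far above all others. Riiad1 averaged 169 ± 84.7 in knockout islets and 74.8 ± 24.7 in wild-type islets (SD, n = 10 each), a log2 difference of 1.12 with an SE of 0.24. It was the least secure of the 8: in limma it passed the threshold in 5 of the 20 fits that left out a library, those that dropped knockout replicate 3, 5 or 7, or a wild-type library, 14 or 17. It also missed the threshold when low genes were kept (adjusted p = 0.0621), with a mean of at least 100 (0.0589), with the Xist covariate (0.0544) and with the long-transcript covariate (0.0651). Of 5 other genes with RIIa domains tested, none passed in limma and none had an unadjusted p under 0.05, with Prkar2a and Prkar2b at log2 differences of -0.18 and -0.19.

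Gm42743 (ENSMUSG00000050936) is annotated as a long intergenic non-coding RNA. It was lower in knockout islets, with normalized read counts of 0 to 8.14 (median 3.08) in 9 knockout libraries and 16.2 to 57.0 (median 32.0) in wild-type libraries. Knockout replicates 3, 4 and 8 had no read, whereas knockout replicate 6 had 38.6, above the wild-type median. Gm42743 averaged 6.72 ± 11.6 in knockout islets and 35.1 ± 16.5 in wild-type islets (SD, n = 10 each), a log2 difference of -3.05 with an SE of 0.57. At counts this low the size of the difference rests on the pseudocount of 1, and with a pseudocount of 10 it was -1.53. The edgeR test on recovered reads gave an adjusted p of 0.229, whereas DESeq2 gave 0.0359. Its exons overlap those of Gm20628 and Hist2h2bb, which were not analysed here.

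Knockout replicate 6 stood apart from the other knockout libraries on most of the 8 genes, but not on all. It had the lowest size factor of the 20 libraries, 0.389, the number by which its read counts were divided. Its values therefore rest on few reads for some genes. It held 15 reads of Gm42743, 31 of Capza1, 33 of Rpl34, 41 of Lamtor3, 64 of Riiad1, 117 of Unc5c, 480 of Thbs3 and 1000 of Ank2. On a log2 scale where 0 is the wild-type mean and 1 the mean of the 9 other knockout libraries, it stood at 0.10 for Thbs3, -0.08 for Gm42743, 0.05 for Capza1 and 0.04 for Ank2. It took a middle place for Rpl34 at 0.51 and Lamtor3 at 0.44, and a knockout place for Riiad1 at 1.08 and Unc5c at 0.77. In chromosome order Riiad1, at a knockout place, lies between Thbs3 and Gm42743, both at a wild-type place. The knockout library nearest to the wild-type side was replicate 6 for 6 of the 8 genes, against 15.9% of all genes tested and 16.9% of those on chromosome 3. This library was already set apart when the 8 genes were chosen, and they were picked by a contrast that includes it. The count therefore describes the choice and carries no test.

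Counting a gene as on the knockout side when its position exceeded 0.5, knockout replicate 6 had 3 of 8 genes there, the other knockout libraries 6 to 8, and wild-type libraries 0 to 3. Wild-type library 14 also had 3, namely Riiad1, Lamtor3 and Unc5c, and knockout replicate 7 had the lowest count of the other knockout libraries, with Riiad1 and Unc5c on the wild-type side. Over the 41 genes past the threshold that are not among the 8, knockout replicate 6 had a median position of 0.30 and was on the wild-type side for 27. Its median over the 8 was 0.27, and no other library was placed over the 41. Without knockout replicate 6, 6 of the 8 genes had groups that did not overlap, against 1 of 8 with it. Over all genes tested 25 (0.143%) had groups apart without it. The 2 that still overlapped were Riiad1 and Unc5c. The 8 and the 41 genes were called by a contrast that includes knockout replicate 6, so these positions and counts carry no test.

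**Figure D3:**
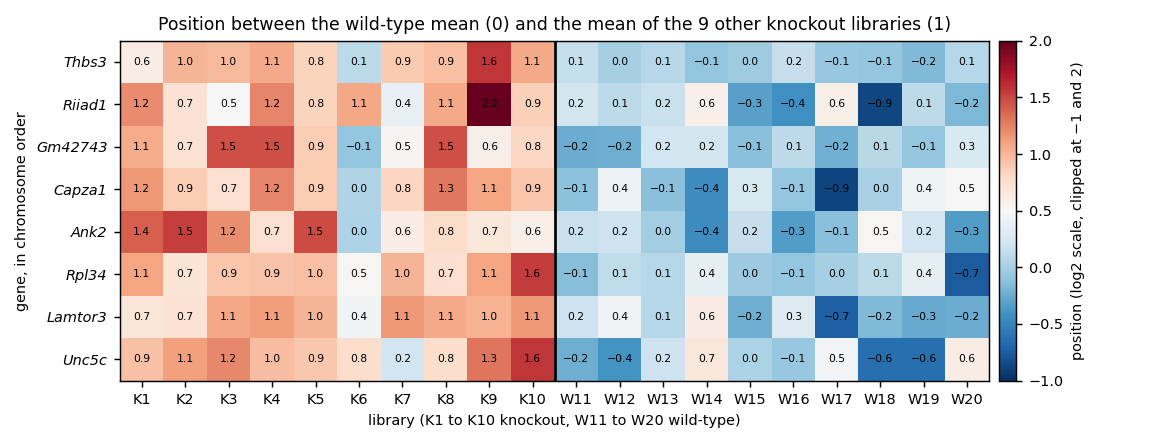
Position of every library (columns, knockout left of the line, wild-type right) for the 8 genes in chromosome order (rows), on a log2 scale where 0 is the wild-type mean and 1 the mean of the 9 other knockout libraries. Column K6 is near 0 for Thbs3, Gm42743, Capza1 and Ank2 but 1.08 for Riiad1, and W14 is on the knockout side for 3 genes.

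The 8 genes lie on the same side of P2ry14 in annotation order. They were already described so when they were chosen, so their shared side carries no test. P2ry14 is number 174 of the 833 tested genes of chromosome 3, Thbs3 is number 328, Riiad1 396, Gm42743 465, Capza1 547, Ank2 684, Rpl34 704, Lamtor3 734 and Unc5c 753. Among genes that are not of the 8, an unadjusted p under 0.05 in limma was found for 8 of 173 before P2ry14 (4.62%), for 24 of 153 between P2ry14 and Thbs3 (15.7%), for 57 of 418 from Thbs3 to Unc5c (13.6%) and for 10 of 80 beyond Unc5c (12.5%). Over all genes tested the share was 8.94%. The difference between these segments was not tested.

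At the adjusted threshold limma called 2 of the 825 other chromosome 3 genes (0.242%), Enpep and Gm16559, both between Ank2 and Unc5c. Enpep, the aminopeptidase that trims angiotensin, had 1314 ± 273 in knockout islets and 3057 ± 554 in wild-type islets (SD, n = 10 each), a log2 difference of -1.22 with an adjusted p of 4.76e-05. Its groups did not overlap, and the highest knockout value, 1869, was again knockout replicate 6. Enpep passed in all 20 fits that left out a library. Gm16559, an antisense gene next to Adh1, had a log2 difference of -0.93 and an adjusted p of 0.0344, and passed in 8 of those 20 fits, failing where knockout replicate 2, 3, 4, 7, 8 or 9 was left out, and where wild-type library 13, 14, 16, 17, 19 or 20 was. Just outside the threshold were Adh1, an alcohol dehydrogenase, at -0.85 with an adjusted p of 0.0546, and Mrpl9, a mitochondrial ribosomal protein gene next to Riiad1, at 0.45 with an adjusted p of 0.0569. Adh1 passed without knockout replicate 6 or 10, and Mrpl9 without knockout replicate 1 or 5.

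**Figure D4:**
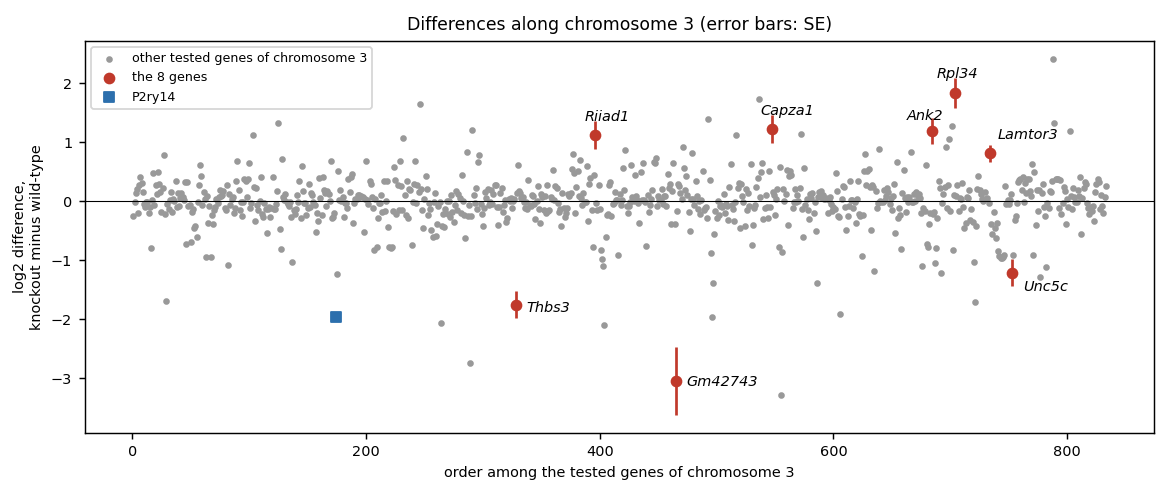
Log2 difference, knockout minus wild-type, of the 833 tested genes of chromosome 3 in annotation order; red dots with SE bars are the 8 genes, grey dots are the others and the blue square is P2ry14. The 8 genes are spread from number 328 to number 753, with higher and lower genes interleaved.

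Neighbours of the 8 genes were examined next. Of the 48 genes that were the nearest 3 tested on either side of each, 0 passed the threshold in limma, 8 (16.7%) had an unadjusted p under 0.05 against 8.94% of all genes tested, 22 were higher and 26 lower, with a median log2 difference of -0.04; edgeR called 1 and DESeq2 3. The 8 included Mrpl9 before Riiad1, at 0.45, Trim46 near Thbs3, at 0.62 (adjusted p = 0.110), the histone gene H2afz near Lamtor3, at 0.81 (adjusted p = 0.233), and Alpk1 near Ank2, at -1.04 (adjusted p = 0.315), named after their values were seen. Rpl34 stands between Ostc and Hadh, which had log2 differences of 0.11 and 0.10 with adjusted p of 0.811 and 0.773. Ank2 stands between Camk2d at -0.20 and Larp7 at -0.21, Capza1 between Mov10 at -0.11 and St7l at 0.16, and Lamtor3 between Dnajb14 at -0.03 and Dapp1 at -0.39. Thbs3 is followed by Muc1 at 0.15, and Unc5c stands between Rap1gds1 at 0.12 and Bmpr1b at -0.91 with an adjusted p of 0.537. Exons of Riiad1 overlap those of Celf3 (-0.03) and exons of Capza1 those of St7l, on the opposite strand in each case.

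Across the 20 libraries, after removing each genotype's mean, the gene most like Ank2 was Fry, with Pearson's r of 0.93 and Spearman's rho of 0.96, followed by Pbrm1 and Lats1. Their longest transcripts have 10893, 7907 and 7209 bases. Hace1 was most like Capza1 (r = 0.87), and Angptl6 and Atp4a were the most like Rpl34 among named genes (r = 0.84 and 0.83). Mtcl1 was most like Unc5c (r = 0.81), Rcn1 most like Lamtor3 (0.80), Zfp553 most like Gm42743 (0.77), Sympk most like Thbs3 (0.76) and Vps29 the named gene most like Riiad1 (0.73). None of these genes lies on chromosome 3, and none passed the threshold between the genotypes in limma. Over the 19 libraries without knockout replicate 6 the gene most like Unc5c was Cxxc4 (r = 0.89), which lies on chromosome 3. The gene most like Thbs3, Gm42743, Ank2 and Lamtor3 also changed, to Mcm3ap (0.82), Wrn (0.74), Akap9 (0.95) and Pdzd11 (0.78). Hk3 became the named gene most like Riiad1 (0.74), and Angptl6 became the most like Rpl34 of all genes compared (0.87). These are the highest of 13950 correlations for each gene, in libraries that differ in depth and acinar content, and are given as a description.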

How the data were processed

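RNA-seq of mouse pancreatic islets, 10 P2Y14-knockout and 10 wild-type libraries, was analysed from 1 deposited table of DESeq-normalized read counts per gene, a signal unit that the authors made by dividing read counts by a size factor per library. Per the submitters' processing notes the build was mm9 and the tools were DESeq 1.16.0, Cufflinks 1.3.0, TopHat 1.3.3 with Bowtie 0.9.9 listed beside it, and FastQC. Which program counted reads, whether it used strand, how it placed reads matching several genes and which annotation it read were not given in the sources used here. Library preparation used TruSeq RNA v2, per the labels' protocols, and this kit does not mark strand. Dividing each column by its step gave whole reads for 100% of values within 0.05 reads, and each pair of libraries of the same group differed beyond counting error.

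Names, gene order and exons came from GENCODE M21 (GRCm38, not the build of the files), which named 23950 identifiers and left 2261 unnamed; the printed promoter is from RefSeq (GRCm38.p6), which matched 5 of the 8 genes. Differences were fitted on log2(value + 1), a pseudocount of 1, with limma 3.58.1 in R 4.3.3 (lmFit, eBayes with trend), over the 17482 genes whose mean reached 10, using Benjamini-Hochberg adjustment and a threshold of 0.05. A larger pseudocount gave a smaller change for the low gene Gm42743, at -3.42, -3.05 and -1.53 with pseudocounts of 0.5, 1 and 10. At 1 the change was still larger than in the count tests, where edgeR gave -2.60 and DESeq2 -2.54. For P2ry14 limma gave -1.97, edgeR -1.57 and DESeq2 -1.56. The labels do not say that libraries came from separate animals, so p-values measure the spread between these libraries. The step was tested on simulated data of 10 against 10 libraries. It recovered 25% of genes changed 1.5-fold, 70.8% at 2-fold, 70.2% at 3-fold and 80% at 4-fold, with 4 false calls among 123. A gene that was not called may therefore still differ.

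The members, gene lists and tests were chosen with earlier results of these data known. The genes named are P2ry14, the 8 genes, their neighbours and copies, chromosome 3 genes nearest the threshold on each side, members of 7 fixed family lists, and the genes most like each of the 8 with a mean of at least 50; a few others, chosen after their values were seen, are said to be so or are list members singled out for their values. Alternatives were other pseudocounts and filters, TMM and quantile normalization, covariates for acinar RNA, Xist and, added after seeing the data, the long-transcript level, each library left out, and tests on the recovered reads with edgeR 4.0.16, which called 43 genes, and with DESeq2 1.42.0, which called 138.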

Additional observations from a re-analysis of the deposited data

Results flagged for a closer look

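In 5 of 16 sets of 10 libraries (8 genes in each genotype), the highest library stood apart from the rest by more than Dixon's 95% critical value allows, measured as its gap to the next library over the whole range. For independent sets of normally distributed values chance marks about 1 in 20; these sets share libraries, and the rate in these data was not measured. All 5 were knockout sets. Knockout replicate 6 had a Thbs3 value of 1234, with the next knockout library at 617. The same library had a Gm42743 value of 38.6, with the next at 8.14. Knockout replicate 9 had a Riiad1 value of 393, with the next at 186. Knockout replicate 10 had an Rpl34 value of 344, with the next at 186. Knockout replicate 7 had an Unc5c value of 486, with the next at 301. Thus 4 different libraries were involved, and in Riiad1 and Rpl34 the high value lies away from the wild-type libraries, whereas in Thbs3, Gm42743 and Unc5c it lies toward them.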

How the results depend on the processing

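No paired analysis was possible because the labels number wild-type samples 1 to 10, as they do knockout samples, whereas the wild-type columns of the table carry 11 to 20, and nothing ties a column to a label's number. All 8 genes kept their direction in every fit, and their log2 differences moved by less than the spread between libraries, except that of Gm42743, which was -1.53 with a pseudocount of 10; Gm42743 has no value with a mean of at least 100. Limma's threshold was passed in every fit that left out a library by 6 of the 8 genes, by Capza1 in 17 of 20 and by Riiad1 in 5 of 20. With a library left out, log2 differences ranged from -1.93 to -1.61 for Thbs3, 0.98 to 1.20 for Riiad1, -3.42 to -2.83 for Gm42743, 1.09 to 1.35 for Capza1, 1.10 to 1.32 for Ank2, 1.68 to 1.94 for Rpl34, 0.74 to 0.87 for Lamtor3 and -1.32 to -1.13 for Unc5c. Of all tested genes 49 were called, against 29 with a mean of at least 100, 105 with the acinar covariate, 75 with the long-transcript covariate and 138 in DESeq2, and 27 (without knockout replicate 4) to 74 (without knockout replicate 6) with a library left out. Of the other chromosome 3 genes 2 were called, against 4 with TMM factors, 12 with the acinar covariate, 1 with the Xist covariate, 14 with the long-transcript covariate, 4 in edgeR and 16 in DESeq2, and 1 to 8 with a library left out, the highest without knockout replicate 6. None of these calls lay before P2ry14 in any fit, and P2ry14 itself is among them with the acinar covariate, in DESeq2 and without knockout replicate 5. Of the 48 flanking genes 0 were called, against 1 with TMM factors, the acinar covariate, the long-transcript covariate or edgeR, 3 in DESeq2, and 0 to 1 with a library left out. Of the 113 family genes 1 was called, against 0 with no filter, a mean of at least 100, the Xist covariate or edgeR, 2 with the long-transcript covariate, 3 with the acinar covariate or DESeq2, and 0 to 2 with a library left out; with a mean of at least 100 Rpl17 itself is not tested, and for the other changes the cause was not tested. Reads of Rpl34, Capza1 and Lamtor3 that match near copies limit their values, and counts of Gm42743 were at most 15 reads in any knockout library.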

Other observations

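Without knockout replicate 6, limma called 8 other chromosome 3 genes, all between Thbs3 and Unc5c in annotation order; they were chosen here after their values were seen. Of these, 4 stand next to each other between Lamtor3 and Unc5c: the alcohol dehydrogenase genes Adh1, Adh6a and Adh6b and the antisense gene Gm16559. Without that library the log2 differences of Adh1, Adh6a and Adh6b were -0.94, -1.03 and -1.03, with adjusted p of 0.0151, 0.0449 and 0.0457 in limma, and Gm16559 had an adjusted p of 0.0141. With all libraries Adh1 averaged 5731 ± 2169 in knockout islets and 10063 ± 2809 in wild-type islets (SD, n = 10 each). Knockout replicate 6 had 9508, close to the wild-type mean, and the highest of the other knockout libraries had 9445. Adh6a averaged 1553 ± 690 in knockout islets and 2934 ± 917 in wild-type islets, with 2247 in knockout replicate 6 and up to 3130 in the other knockout libraries. Adh6b had 532 in knockout replicate 6, and over all libraries Adh6a and Adh6b each had a log2 difference of -0.96. Reads shared by Adh6a and Adh6b were not examined. Gm16559 is antisense, next to Adh1, and the library kit does not mark strand. The 4 genes may therefore not be 4 separate changes. Adh5, another alcohol dehydrogenase gene farther along the chromosome, had a log2 difference of 0.25 over all libraries with an adjusted p of 0.617 in limma.

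Trim46, a microtubule-organizing protein gene close to Thbs3, Lix1l and Phtf1 were higher in knockout islets in the same fit, at log2 differences of 0.72, 0.69 and 0.75 with adjusted p of 0.00848, 0.0439 and 0.0346 in limma. Their values in knockout replicate 6 were 1085, 172 and 1645, against wild-type means of 1365, 245 and 2073. Enpep was the eighth gene, at -1.28 with an adjusted p of 1.52e-06.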
